A study of Mus musculus with 4 samples.

Results

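The matrix metalloproteinases (*Mmp*), the secreted *Adamts* proteases and their tissue inhibitors (*Timp*) were described in primary mouse embryonic fibroblasts (MEFs) that carry or lack *Mbd4*. Members were chosen by gene symbol alone (*Mmp*, *Adamts* or *Timp* followed by a number). This gave 43 of the 23537 genes in the table of raw read counts: 21 *Mmp*, 18 *Adamts* and 4 *Timp* genes. *Mbd4* encodes a DNA glycosylase that removes thymine or uracil mispaired with guanine, and the series asks how its loss alters the transcriptome. RNA was taken from subconfluent MEFs of C57BL/6 embryos at day 12.5 postcoitus, from Mbd4-/- (KO, n = 2) and Mbd4+/+ (WT, n = 2) mice, with no treatment in either group. The methods call the 2 samples of a genotype independent but do not give the number of embryos or cultures behind them, so p-values reflect the spread between these 4 libraries alone, which may be technical.

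Proteases of the *Mmp* family are zinc enzymes that are made as inactive precursors and cut collagens, gelatins, proteoglycans and growth factor carriers. The Adamts enzymes have the same kind of zinc centre followed by thrombospondin repeats, and they trim procollagens, large proteoglycans and microfibril proteins. The Timps bind the active site of these proteases, and Timp3 is the member that stays bound to the matrix and also blocks several Adamts and Adam enzymes. Fibroblasts are a main source of all 3 families in connective tissue.

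The libraries held 39108275 to 47567835 counts. Members took 0.241% and 0.245% of all counts in KO against 0.298% and 0.301% in WT. As a check of the labels, *Mbd4* had 373 and 302 counts in KO and 663 and 630 in WT, so its transcript was lower in KO but not absent (log2 fold change -0.99). *Ift122*, its neighbour on chromosome 6, had 7 and 3 counts in KO against 1002 and 944 in WT. Both KO libraries thus also had little *Ift122* RNA, and the part of *Ift122* in the differences described here was not tested. The fibroblast genes *Vim*, *Col1a1* and *Col1a2* had high counts in every library, but 7 of 12 fibroblast markers fell and 1 rose in KO. Of all genes tested, 32.5% fell and 34.3% rose at the same limit (adjusted p of 0.05). *Dcn* had 5 and 7 counts in KO against 1349 and 1123 in WT, and *Lum* had 0 and 1 against 142 and 131, so these 2 fibroblast proteoglycan genes were nearly absent from the KO libraries. In bulk RNA, fewer cells of a type and less RNA per cell cannot be told apart.

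Of the 43 members, 32 passed the filter on low counts and were tested. At an adjusted p of 0.05 (edgeR quasi-likelihood test, Benjamini-Hochberg over all genes), 12 rose and 12 fell in KO, and 8 did not pass. The share past the threshold was 75.0%, where 66.8% of all 15538 genes tested passed (34.3% higher and 32.5% lower), so changes were widespread in the whole transcriptome. The median log2 fold change was 0.02 over the tested members and 0.02 over all genes tested. Under stricter limits (adjusted p of 0.01, log2 fold change above 2 in size), *Mmp13*, *Mmp10* and *Adamts20* were higher and *Adamts18*, *Adamts2* and *Adamts16* were lower, 6 of the 32 tested. Of all genes tested, 8.94% passed these limits (5.79% higher and 3.15% lower). KO and WT levels did not overlap in 26 of 32 members (81.2%), against 82.8% of all genes.

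By family, calls were as follows. Among the *Mmp* genes, 6 rose, 3 fell and 5 did not pass (median log2 fold change 0.25). Of the *Adamts* genes, 6 rose, 7 fell and 2 did not pass (median -0.12). Of the *Timp* genes, *Timp1* and *Timp3* fell and *Timp2* did not pass (median -0.79). The difference between families was not tested.

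**Figure D1:**
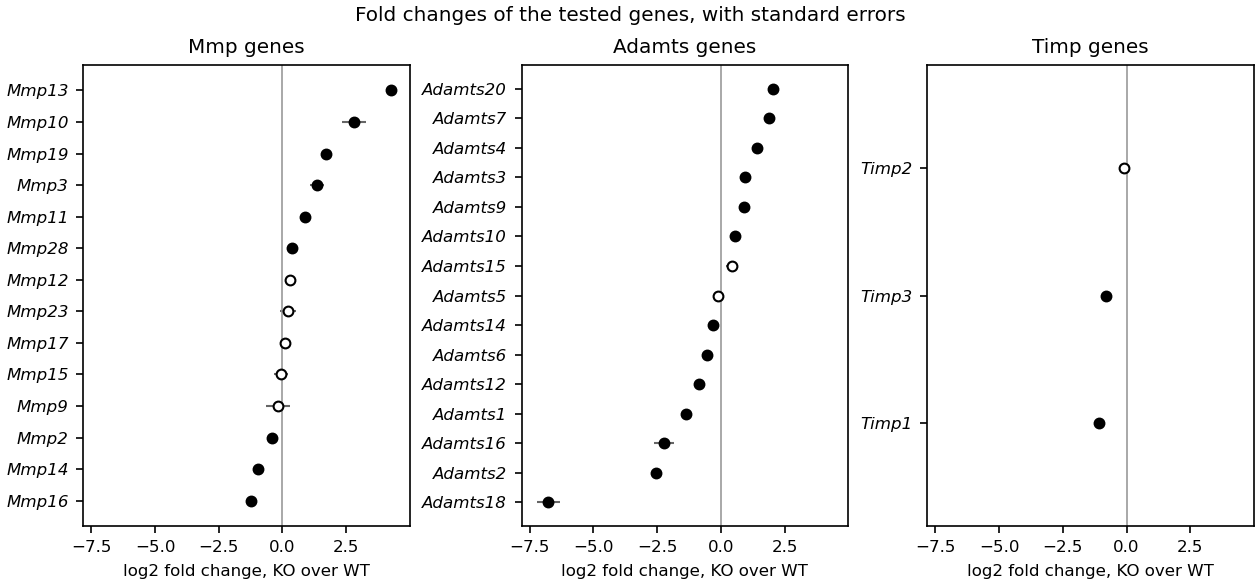
Log2 fold change (KO over WT, horizontal axis) of each of the 32 tested genes, by family. Bars are standard errors, filled points passed an adjusted p of 0.05 and open points did not. *Mmp13* lies farthest to the right (4.25) and *Adamts18* farthest to the left (-6.77), and the points of *Timp1* and *Timp3* lie left of 0.

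Collagenases start the breakdown of fibrillar collagen. *Mmp13* (collagenase-3, ENSMUSG00000050578, mm9 chr9:7272514-7283333), known from hypertrophic cartilage and bone, had 1006 and 796 counts in KO and 39 and 52 in WT. Both KO libraries stood far above both WT libraries. In CPM (read counts scaled by library size with TMM factors) its level was 20.2 ± 1.31 in KO and 1.07 ± 0.282 in WT (SD, n = 2 each), a 19.0-fold rise (log2 fold change 4.25, SE 0.16, adjusted p = 7.97e-11, edgeR). The other 2 genes grouped with it as secreted collagenases were hardly detected. *Mmp8*, the neutrophil collagenase, had 1 and 2 counts in KO and 0 in each WT library, and *Mmp1a* had 1 count in a KO library only. Membrane-type genes such as the abundant *Mmp14*, which fell, were not counted in this group. Neutrophil markers were likewise near 0 (summed CPM 0.073 to 0.364 per library).

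Stromelysins cut proteoglycans and activate other *Mmp* precursors. *Mmp10* (stromelysin-2, ENSMUSG00000047562, chr9:7502352-7510238) had 39 and 27 counts in KO and 6 and 3 in WT. Its level was low in all libraries, at 0.738 ± 0.117 CPM in KO and 0.104 ± 0.0429 CPM in WT, and the groups did not overlap. The rise was 6.91-fold (log2 fold change 2.79, SE 0.47, adjusted p = 1.46e-04, edgeR). *Mmp3* (stromelysin-1) had 138 and 113 counts in KO and 68 and 27 in WT, and it rose by a log2 fold change of 1.36 (SE 0.29, adjusted p = 9.46e-04, edgeR). The WT libraries differed from each other in *Mmp3*: without WT replicate 1 the log2 fold change was 2.10 and without WT replicate 2 it was 0.87.

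*Mmp13*, *Mmp10* and *Mmp3* lie in a single run of *Mmp* genes on chromosome 9. In these files 8 members lie there, between bases 7272514 and 7674968 (402.5 kb), in the order *Mmp13*, *Mmp12*, *Mmp3*, *Mmp1a*, *Mmp10*, *Mmp8*, *Mmp27* and *Mmp20*. Of the 4 tested, *Mmp13*, *Mmp3* and *Mmp10* rose. *Mmp12* (macrophage elastase) had 331 and 286 counts in KO and 222 and 268 in WT and did not pass (log2 fold change 0.28, SE 0.15, adjusted p = 0.127, edgeR). The remaining 4, *Mmp1a*, *Mmp8*, *Mmp27* and *Mmp20* (the tooth enamel protease), had 0 to 2 counts in any library. Neighbouring genes of the run thus ranged from near 0 to 1006 counts in KO. *Mmp12* shares 157 exon bases with *Mmp1b* on the opposite strand. Of 5 macrophage markers tested, 1 rose, 2 fell and 2 did not pass. The whole list summed to 7.18 to 7.49 CPM in KO and 5.86 to 6.86 in WT. *Csf1r* was the marker that rose, with 196 and 177 counts in KO and 61 and 47 in WT. *Cd14* (58 and 34 against 113 and 87) and the leukocyte gene *Ptprc* (0 and 2 against 40 and 21) fell. Of the untested markers, *Emr1* had 1 count in all libraries together. *Lyz2* had 6 and 7 counts in KO and 0 in WT, and *Itgam* had 3 and 2 against 2 and 8. The part of macrophages in the values of *Mmp12* was not tested.

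**Figure D2:**
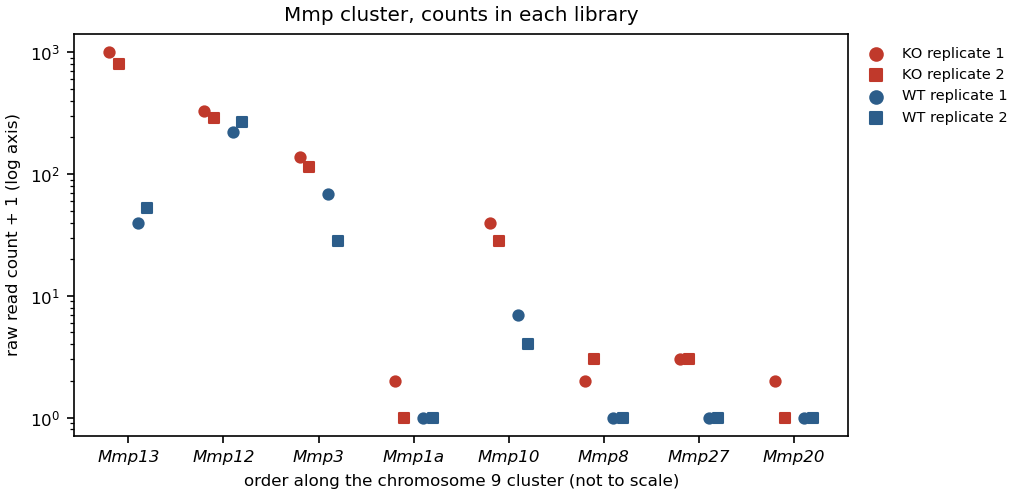
Raw read count plus 1 (vertical log axis) of the 8 *Mmp* genes of the chromosome 9 run, in their order along the chromosome, in each KO and WT library. The KO points of *Mmp13* stand at 1006 and 796 counts above WT points of 39 and 52, the points of *Mmp12* lie close together, and 4 genes stay between 0 and 2 counts.

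Promoters of this run are shown because AP-1 sites and TATA boxes are the known shared features of inducible *Mmp* genes, and because *Mmp1a*, which was not detected beyond 1 count, can be set beside its neighbours that rose. The 130 bases before the RefSeq start (GRCm38.p6 records, each placed in mm9 by an exact match) are given 5′ to 3′ in the direction of the gene. Capitals mark the AP-1 motif TGANTCA, the Ets-type PEA3 motif AGGAAG and TATAAA.
Mmp13 (chr9:7272384-7272513, plus strand): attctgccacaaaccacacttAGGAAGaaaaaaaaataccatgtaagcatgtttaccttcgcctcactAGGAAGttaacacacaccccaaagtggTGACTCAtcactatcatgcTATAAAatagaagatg
Mmp3 (chr9:7445692-7445821, plus strand): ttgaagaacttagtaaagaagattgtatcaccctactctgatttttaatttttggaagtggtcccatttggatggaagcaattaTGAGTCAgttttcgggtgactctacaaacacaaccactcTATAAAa
Mmp1a (chr9:7464011-7464140, plus strand): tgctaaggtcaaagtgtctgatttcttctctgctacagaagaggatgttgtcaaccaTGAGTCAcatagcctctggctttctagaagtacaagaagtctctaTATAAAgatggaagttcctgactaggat
Mmp10 (chr9:7502212-7502341, plus strand): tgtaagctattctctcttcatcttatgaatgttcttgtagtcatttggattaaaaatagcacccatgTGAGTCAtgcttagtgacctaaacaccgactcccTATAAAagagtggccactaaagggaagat

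The AP-1 letters began 35 bases before the start in *Mmp13*, 46 in *Mmp3*, 73 in *Mmp1a* and 63 in *Mmp10*. All 4 stretches also held TATAAA between the AP-1 match and the start. Over windows of 300 bases (250 before to 50 after the start), 30 of the 43 members had a promoter in the table, with 32 records. TGANTCA, a palindrome read on both strands, was in 6 of these 32 and in 7.8% of all 32851 promoters. All 6 lay in the chromosome 9 run, where the 8 genes had 9 records, and none of the 23 other records held it. TATAAA, read on the gene's strand only, was in 8 of 32 against 8.3% of all promoters, and AGGAAG, read on both strands, was in 13 of 32 against 35.4%. *Mmp20*, with 1 count in all libraries together, also held TGANTCA, so the letters were present in genes that rose and in genes that were not detected. A match is a description of letters and not of binding.

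The chromosome 9 promoters were also poor in CpG, the dinucleotide in which mammalian DNA is methylated. Their 9 windows held 0 to 4 CpG (median 1), against a median of 7 (0 to 67) in all promoters. Outside the run, members with more CpG were found among those that rose, such as *Adamts20* and *Adamts3* (41 each) and *Adamts9* (25), and among those that fell, such as *Adamts2* (41) and *Timp3* (24). Fallen genes also had fewer, as in *Adamts12* (7), *Timp1* (8) and *Mmp14* (10). The *Adamts20* window (chr15:94234732-94235031) lies inside the annotated gene (94100594-94295849, minus strand) and not at its annotated start. The stretches of *Adamts18* (22 CpG in the 300 bases) and *Adamts2* are shown because these genes had the lowest fold changes, and neither holds any of the 3 motifs.
Adamts18 (chr8:116372740-116372869, minus strand): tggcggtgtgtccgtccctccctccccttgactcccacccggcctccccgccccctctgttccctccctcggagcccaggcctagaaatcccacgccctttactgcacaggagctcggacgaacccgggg
Adamts2 (chr11:50415457-50415586, plus strand): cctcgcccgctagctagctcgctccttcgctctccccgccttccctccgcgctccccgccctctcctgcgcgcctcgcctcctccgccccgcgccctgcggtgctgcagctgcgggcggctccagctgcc

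Because 69.8% of members had a promoter in the table, CpG content was not compared over all members. No entry was found for *Adamts4*, *Adamts5*, *Adamts6*, *Adamts7*, *Adamts8*, *Adamts10*, *Adamts15*, *Adamts16*, *Mmp2*, *Mmp9*, *Mmp16*, *Mmp17* and *Mmp19*.

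Among the gelatinases and membrane-type enzymes, *Mmp2*, *Mmp14* and *Mmp16* fell and the other 3 tested did not pass. *Mmp2* (gelatinase A, ENSMUSG00000031740, chr8:95351227-95377316), the member of its family with the highest CPM in both genotypes, had 11234 and 10244 counts in KO and 14919 and 13125 in WT. That is 242 ± 8.60 CPM in KO and 327 ± 8.99 CPM in WT, a fall that was small beside that of other members but larger than the spread between libraries (log2 fold change -0.43, SE 0.06, adjusted p = 2.31e-05, edgeR). *Mmp9* (gelatinase B) was near the detection limit, with 16 and 13 counts in KO and 23 and 9 in WT, and its groups overlapped (log2 fold change -0.18, SE 0.47). *Mmp14* (MT1-MMP), which activates the Mmp2 precursor at the cell surface, had 5950 and 5136 counts in KO and 11463 and 9540 in WT. It fell 1.96-fold (log2 fold change -0.97, SE 0.06, adjusted p = 1.51e-08, edgeR), with KO levels of 125 and 125 CPM below WT levels of 256 and 233 CPM. *Mmp16* (MT3-MMP) fell as well, from 1294 and 1271 counts in WT to 621 and 521 in KO (log2 fold change -1.22). The 2 remaining membrane-type genes tested, *Mmp15* and *Mmp17*, did not pass (log2 fold changes -0.06 and 0.10).

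Of the 4 other *Mmp* genes tested, *Mmp19*, *Mmp11* and *Mmp28* rose. *Mmp19*, an enzyme of basement membrane and cartilage matrix, had 2360 and 1919 counts in KO and 627 and 628 in WT, a 3.28-fold rise (log2 fold change 1.71, SE 0.08, adjusted p = 7.88e-10, edgeR). *Mmp11* (stromelysin-3), which furin activates inside the cell, had 2580 and 2495 counts in KO and 1433 and 1270 in WT, a 1.82-fold rise (adjusted p = 3.35e-07, edgeR). *Mmp28* (epilysin) rose less, from 514 and 435 counts in WT to 614 and 657 in KO (log2 fold change 0.38, adjusted p = 0.012, edgeR), and it did not pass without KO replicate 2 (adjusted p = 0.221). *Mmp23* did not pass (log2 fold change 0.23). *Mmp19* shares 789 exon bases and *Mmp28* shares 465 with a gene on the opposite strand, and how HTSeq treated strand is not given in the sources used, so reads of these pairs may not be separable.

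**Figure D3:**
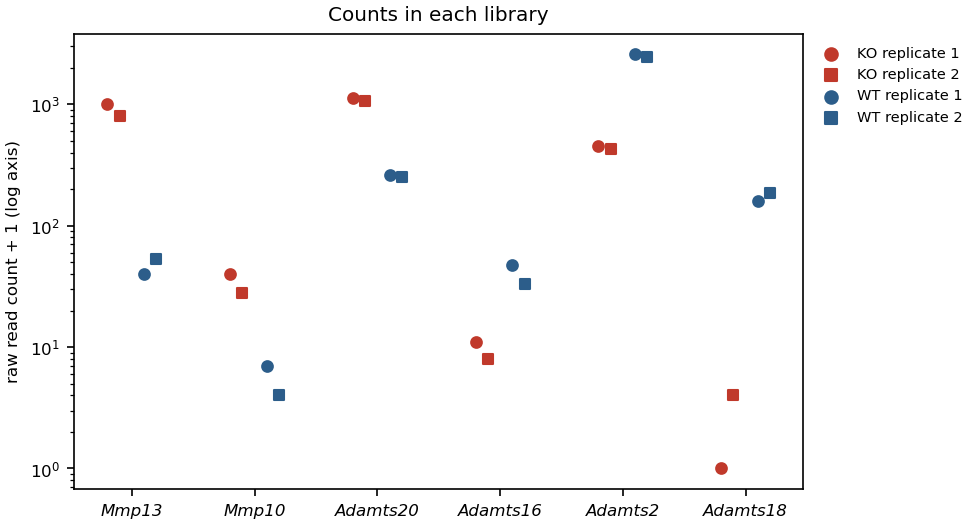
Raw read count plus 1 (vertical log axis) in each library for the 6 genes past the stricter limits. The KO points lie above the WT points for *Mmp13*, *Mmp10* and *Adamts20* and below them for *Adamts16*, *Adamts2* and *Adamts18*, with no overlap.

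Among the *Adamts* genes, the procollagen N-proteinases remove the amino-terminal propeptide of fibrillar collagens. *Adamts2* (ENSMUSG00000036545, chr11:50415586-50621075), the main enzyme for procollagen I, had 455 and 429 counts in KO and 2574 and 2469 in WT. Its level fell from 58.9 ± 1.98 CPM in WT to 9.99 ± 0.590 CPM in KO, a 5.90-fold fall (log2 fold change -2.56, SE 0.08, adjusted p = 1.7e-11, edgeR). The related *Adamts3* moved the opposite way, from 323 and 309 counts in WT to 622 and 625 in KO (log2 fold change 0.94, SE 0.12, adjusted p = 1e-05, edgeR). *Adamts14*, the other enzyme of this group, fell slightly from 949 and 803 counts to 766 and 704 (log2 fold change -0.30, adjusted p = 0.0097, edgeR), a call that was lost without KO replicate 1 (adjusted p = 0.0997). Per kilobase of exon, *Adamts2* stood at 7.30 and 7.31 times the level of *Adamts3* in WT and at 0.670 and 0.628 times in KO. The order of these genes was thus exchanged between genotypes.

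Aggrecanases and versicanases cut large proteoglycans. *Adamts20* (ENSMUSG00000022449, chr15:94100594-94295849), known from the belted coat mutation, had 1136 and 1064 counts in KO and 263 and 252 in WT. Its level rose 4.13-fold from 6.01 ± 0.198 to 24.9 ± 1.35 CPM (log2 fold change 2.05, SE 0.10, adjusted p = 1.11e-09, edgeR). Its log2 fold change was 1.99 without KO replicate 2, just below the stricter limit. *Adamts4* (aggrecanase-1) rose from 906 and 793 counts in WT to 2473 and 2240 in KO (log2 fold change 1.43), and *Adamts9* rose from 702 and 662 to 1358 and 1263 (log2 fold change 0.89), though *Adamts9* shares exon bases with a pair of opposite-strand genes that had 0 to 4 counts. *Adamts1* fell instead, from 12173 and 12986 counts in WT to 5344 and 4760 in KO, or from 294 ± 32.0 to 114 ± 2.15 CPM (log2 fold change -1.37, SE 0.07, adjusted p = 2.18e-09, edgeR). *Adamts5* (aggrecanase-2, ENSMUSG00000022894, chr16:85858415-85901370), the *Adamts* gene with the highest mean CPM in both genotypes, had 13096 and 11651 counts in KO and 12360 and 13535 in WT. Its groups overlapped, at 279 ± 5.04 CPM in KO and 303 ± 38.5 CPM in WT, and it did not pass (log2 fold change -0.12, SE 0.08, adjusted p = 0.184, edgeR). *Adamts1* and *Adamts5* are neighbours on chromosome 16, 55.1 kb apart. *Adamts15* did not pass (log2 fold change 0.42, adjusted p = 0.115, edgeR).

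The remaining 6 tested *Adamts* genes all passed an adjusted p of 0.05, a limit that 66.8% of all genes tested also passed. *Adamts18* (ENSMUSG00000053399, chr8:116221026-116372641) had 0 and 3 counts in KO and 158 and 184 in WT. It was thus nearly absent from the KO libraries, at 0 and 0.0728 CPM against 4.01 ± 0.682 CPM in WT. The WT level was 118 times that of KO by summed counts (95% counting interval 40.0 to 575, counting error only, adjusted p = 2.54e-08, edgeR). The fitted log2 fold change of -6.77 (SE 0.46) depends on the prior count and was -5.73 without KO replicate 1 and -10.48 without KO replicate 2. *Adamts16* (ENSMUSG00000049538, chr13:70866680-70980689) was a low gene, with 10 and 7 counts in KO and 46 and 32 in WT, or 0.190 ± 0.0287 and 0.904 ± 0.174 CPM. It fell 4.69-fold (log2 fold change -2.23, SE 0.40, adjusted p = 2.18e-04, edgeR). *Adamts16* and *Adamts18* are a close pair, and both fell, unlike the pairs that follow.

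*Adamts7* and *Adamts12*, which both cut the cartilage protein Comp, moved in opposite directions. *Adamts7* rose from 296 and 243 counts in WT to 1067 and 990 in KO (log2 fold change 1.89, SE 0.11, adjusted p = 3.39e-09, edgeR), while *Adamts12* fell from 4947 and 3803 to 2709 and 2293 (log2 fold change -0.85, SE 0.08, adjusted p = 5.09e-07, edgeR). *Adamts10* and *Adamts6*, a pair linked to fibrillin microfibrils, also parted. *Adamts10* rose from 2062 and 2080 counts to 3321 and 3018 (log2 fold change 0.56), and *Adamts6* fell from 2300 and 2123 to 1681 and 1427 (log2 fold change -0.56). *Adamts7* shares 122 exon bases with *Tbc1d2b* on the opposite strand, which rose by a log2 fold change of 0.74.

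**Figure D4:**
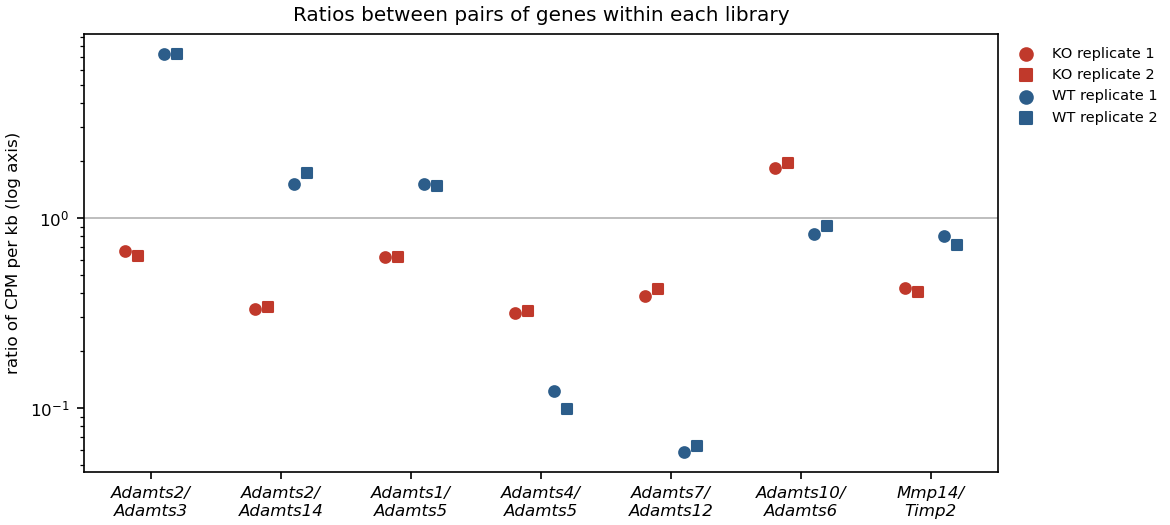
Ratio of CPM per kilobase of exon (vertical log axis) between pairs of related genes in each KO and WT library, with a line at equal levels. The WT ratios of *Adamts2* to *Adamts3* (7.30 and 7.31) and of *Adamts1* to *Adamts5* (1.50 and 1.46) lie above the line and the KO ratios (0.670 and 0.628, 0.623 and 0.624) below it.

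These pairs were picked after the values were seen, and their ratios are descriptions. *Adamts1* stood at 1.50 and 1.46 times the level per kilobase of *Adamts5* in WT and at 0.623 and 0.624 times in KO. The ratio of *Adamts7* to *Adamts12* was 0.0587 and 0.0627 in WT and 0.386 and 0.424 in KO. For *Adamts10* over *Adamts6* the ratio was 0.826 and 0.902 in WT and 1.82 and 1.95 in KO, so the more abundant gene of this pair also differed between genotypes.

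Both soluble and matrix-bound inhibitors were abundant. *Timp3* (ENSMUSG00000020044, chr10:85763117-85812251), the inhibitor with the highest mean CPM in WT and in KO (though below *Timp2* in KO replicate 2, at 443 against 462 CPM), had 22181 and 18260 counts in KO and 35529 and 32020 in WT. It fell 1.73-fold, from 787 ± 8.24 to 455 ± 16.7 CPM (log2 fold change -0.79, SE 0.06, adjusted p = 6.67e-08, edgeR). *Timp1* (chrX:20447292-20451861), a soluble inhibitor that also has growth factor activity, fell 2.10-fold, from 13705 and 9756 counts in WT to 6310 and 5188 in KO, or from 272 ± 48.0 to 129 ± 4.88 CPM (log2 fold change -1.07, SE 0.09, adjusted p = 2.54e-07, edgeR). *Timp2*, which is both an inhibitor of Mmp14 and its partner in activating Mmp2, stayed within a narrow range, at 20943 and 19028 counts in KO and 21538 and 19821 in WT (451 ± 14.8 and 482 ± 2.09 CPM). It did not pass (log2 fold change -0.10, SE 0.06, adjusted p = 0.162, edgeR), and with library totals as the scale its log2 fold change was 0.05. *Timp4* had 1 count, in a WT library. *Timp4* lies 589 kb from *Mbd4* on chromosome 6.

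*Timp1* lies on the X chromosome, and the X-inactivation transcript *Xist* was also different between the groups, at 1486 ± 113 CPM in KO and 640 ± 88.1 CPM in WT (log2 fold change 1.22). The Y-linked *Uty* had 33 and 30 counts in KO and 26 and 17 in WT, and the Y-linked *Eif2s3y* had 2 and 2 against 1 and 2. The part of embryo sex in the *Timp1* difference was not tested. *Timp3* shares 1733 exon bases with *Syn3* on the opposite strand, but *Syn3* had 31 to 74 counts in any library.

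Levels of different genes were compared per kilobase of annotated exon. On this scale the *Timp* genes summed to 320 and 315 CPM per kilobase in KO and 566 and 488 in WT. *Timp1* led, with 46.7% and 45.1% of the summed *Timp* level in KO and 60.9% and 54.9% in WT, while the share of *Timp2* was 35.4% and 37.7% in KO and 21.8% and 25.4% in WT. The *Mmp* genes summed to 179 and 184 CPM per kilobase in KO and 235 and 221 in WT, and the *Adamts* genes to 110 and 113 in KO and 141 and 154 in WT. All 3 sums were lower in both KO libraries than in both WT libraries. Protease levels over inhibitor levels came to 0.902 and 0.945 in KO and 0.665 and 0.769 in WT, a higher ratio in both KO libraries. This ratio leans on *Timp1*, which stood at 149 and 142 CPM per kilobase in KO and 345 and 268 in WT. The ratio without *Timp1* was not computed, so no general shift between proteases and inhibitors is read from it. With 2 libraries against 2, an exact permutation test cannot give a p below 0.333, and the sums are given as values without a test.

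The make-up of each family also differed. *Mmp2* and *Mmp14* together gave 88.7% and 88.2% of the summed *Mmp* level in WT and 70.4% in each KO library. *Mmp11* and *Mmp19* gave 6.90% and 7.33% in WT and 19.6% and 19.8% in KO. *Mmp13* gave 0.139% and 0.215% in WT and 4.42% and 3.92% in KO, so the strongest riser remained a minor *Mmp* transcript. The ratio of *Mmp14* to *Timp2*, which act together on the Mmp2 precursor, was 0.798 and 0.722 in WT and 0.426 and 0.405 in KO. *Adamts1* and *Adamts5* together gave 60.5% and 65.2% of the *Adamts* level in WT and 50.4% and 50.2% in KO.

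**Figure D5:**
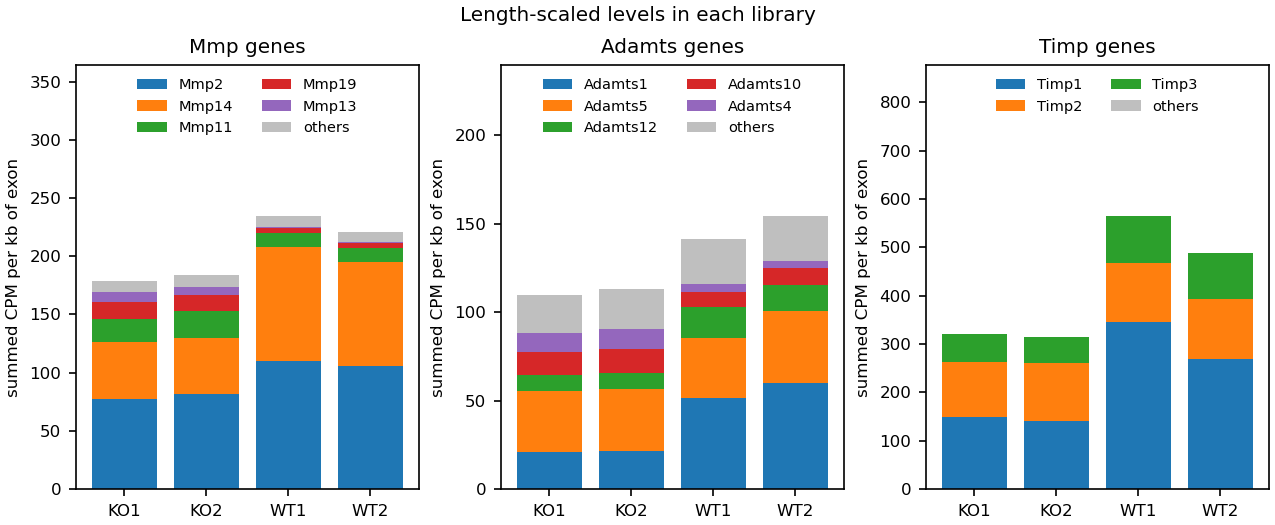
Stacked bars of CPM per kilobase of exon (vertical axis, from 0) of the *Mmp*, *Adamts* and *Timp* genes in each library, coloured by gene, with all other members of the family in grey. The *Timp* bars reach 566 and 488 in WT and 320 and 315 in KO, and *Mmp2* and *Mmp14* make up most of each *Mmp* bar.

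The 11 members below the filter had at most 15 counts in any library, and 8 of them had at most 4 counts in all libraries together. *Adamts17* had 7 and 8 counts in KO and 15 and 5 in WT, *Mmp24* (MT5-MMP) had 6 and 6 against 11 and 2, and the GPI-anchored *Mmp25* had 0 and 6 against 7 and 2. *Adamts13*, the protease of von Willebrand factor, had 0 and 4 counts in KO and 0 in WT. *Mmp27* had 2 counts in each KO library and 0 in WT. *Adamts8*, *Mmp21* and *Mmp20* had no more than 1 count in any library. A difference in these genes was not detectable at this depth.

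Partners and regulators of the metalloproteinases were read from a list of 37 genes, which left out *A2m*, a further gene planned for it. Of 30 tested, 15 rose, 12 fell and 3 did not pass (median log2 fold change 0.15). Calls in this list, in the 3 lists after it and in the cell type marker lists stand beside 34.3% of all genes tested that rose and 32.5% that fell. The strongest risers were *Adamtsl1*, an Adamts-like protein without a protease domain (log2 fold change 4.74), *Thbs2*, a matricellular protein that binds Mmp2 (4.52), and *Spock2*, a testican (2.64). The largest falls were those of *Serpine2*, an inhibitor of plasminogen activators and thrombin (log2 fold change -3.77), *Tll1*, a procollagen C-proteinase (-2.89), and *Cd44*, a hyaluronan receptor that docks Mmp14 (-1.96). Some genes of this list were chosen after their values were seen, for their place in the pathway. The membrane-bound Mmp inhibitor *Reck* rose (1.14). Of the proprotein convertases, *Furin* fell (-0.76), while *Pcsk5* (2.35), *Pcsk6* (0.80) and *Pcsk7* (0.48) rose. Of the plasminogen system, which activates several *Mmp* precursors, *Plau* (-1.85) and its receptor *Plaur* (-1.58) fell, while *Plat* rose (0.93).

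A list of AP-1, Ets, Runx and NF-kB factors held genes known to act at *Mmp* promoters. Of 22 tested, 8 rose, 12 fell and 2 did not pass (median log2 fold change -0.40). *Batf3* (log2 fold change 2.35), *Fli1* (0.99) and *Runx1* (0.99) rose most, and *Etv4* (-4.14), *Fosb* (-1.74) and *Fosl1* (-1.48) fell most. Of the Runx and NF-kB genes, *Runx1*, *Runx2* and *Rela* rose and *Nfkb1* fell. Members of the AP-1 family were found on both sides, and no member's change was tied to them by a test. Among 12 tested genes of the *Adam* family, the membrane-anchored relatives, 4 rose, 6 fell and 2 did not pass (median -0.11). Whether each encodes an active protease was not examined. *Adam23* had 924 and 858 counts in KO and 4 and 2 in WT (log2 fold change 8.11), and *Adam33* had 35 and 47 in KO against 1 in each WT library (39.6 times by summed counts, 95% counting interval 10.6 to 333). *Adam22* also rose (1.88), and *Adam12* (-0.93), *Adam9* (-0.77) and *Adam17*, the sheddase of Tnf (-0.51), fell.

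Known substrates were read from a list of proteoglycans, collagens and other proteins such as fibrillins and fibronectin. Of 16 tested, 4 rose, 9 fell and 3 did not pass (median log2 fold change -0.61). *Fbn1*, *Fn1* and *Ltbp1*, which are neither proteoglycans nor collagens, were among those that fell. The basement membrane collagens *Col4a1* (3.61) and *Col4a2* (2.99) and the microfibril gene *Fbn2* (0.70) rose most, and *Col2a1* (-1.93), the aggrecan gene *Acan* (-1.34) and *Col1a1* (-1.32) fell most. *Col1a1*, whose product Adamts2 processes, was thus lower in the same libraries as *Adamts2*. *Vcan*, the versican gene, was the other riser (0.43).

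Cartilage and bone markers were read because *Mmp13* and several *Adamts* genes are known from those tissues. Chondrocyte markers summed to 136 and 154 CPM in KO and 464 and 424 in WT, and 4 of 5 fell while *Col11a2* rose. Both tested osteoblast markers, *Alpl* and *Runx2*, rose. The osteoblast list had a summed level of 17.4 and 19.7 CPM in KO and 13.4 and 14.2 in WT. Of the untested osteoblast markers, *Bglap* had 0 to 2 counts and *Ibsp* 0 to 4 counts in any library. *Sp7* had 8 and 18 counts in KO and 2 and 7 in WT. Epithelial markers summed to 3.68 and 3.40 CPM in KO and 28.3 and 28.5 in WT. Most of the WT sum came from *Krt19* (mean 27.3 CPM), which fell. Most of the KO sum came from *Cdh1* (mean 2.79 CPM), which rose. The 2 neural markers tested, *Nes* and *Tubb3*, fell, while the untested *Sox2* and *Elavl4* had 0 to 2 counts in any library. Of the endothelial markers tested, 4 of 4 did not pass, and the only tested osteoclast and skeletal muscle markers did not pass. The part of cell make-up in the members' differences was not tested.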

How the data were processed

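Total RNA of 2 KO and 2 WT MEF samples was depleted of ribosomal RNA and sequenced with a stranded kit as single-end reads. The authors aligned the reads to mm9 with TopHat2 and Bowtie and deposited raw read counts per Ensembl 67 gene, made with HTSeq 0.5.4p3 per the methods and the submitters' processing notes. How HTSeq treated strand is not given in the sources used. Normalised columns and the authors' own log2 ratios and p-values were not used.

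Analysis used edgeR 4.0.16 in R 4.3.3: filterByExpr, TMM, a quasi-likelihood fit on genotype alone and Benjamini-Hochberg adjustment over 15538 genes. Calls were made at an adjusted p of 0.05 and, as a stricter limit, at 0.01 plus a log2 fold change above 2 in size. Each SE is the size of the log2 fold change over the square root of F. The scripts were tested on simulated data. Alternatives used limma 3.58.1 and DESeq2 1.42.0. Depth was 39108275 to 47567835 counts per library, and intervals cover counting error only. Exon lengths and mm9 positions came from the GENCODE annotation built on Ensembl 65, which placed 23393 of 23537 genes.

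Genes described in full were those past the stricter limit and the member with the highest mean CPM of each family; the other members were given by fold change, and up to 3 genes per direction were named from each list. Further genes were named after their values were seen. The members and lists were chosen with earlier results of these data known.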

Additional observations from a re-analysis of the deposited data

How the results depend on the processing

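Of 380 member fold changes recomputed under 12 alternatives, 364 kept their direction and their side of the threshold, 3 lost a call, 5 gained a call and 8 changed sign, and none of the sign changes was in a member called in the report. Of the 24 called members, 22 kept call and direction under every alternative that could be fitted to them; *Adamts14* (library totals, log2 fold change -0.15, and without KO replicate 1) and *Mmp28* (without KO replicate 2) did not. With library totals, *Adamts5* (0.029), *Mmp15* (0.091) and *Timp2* (0.052) changed sign, and *Mmp15* was 0.001 with upper quartile scaling. Leaving out single libraries gave -0.40 to 0.36 for *Mmp15*, -0.67 to 0.57 for *Mmp9* and -0.006 to 0.49 for *Mmp23*. *Adamts15* and *Mmp12* gained a call with library totals (0.57 and 0.42) and without WT replicate 2, and *Adamts5* gained one without WT replicate 1 (-0.24). With a filter of 10 counts in every library, members lower at the stricter limit went from 3 to 1 and *Adam* genes that rose from 4 to 2, since that filter removes genes near 0 in either group. At the stricter limit, members that rose numbered 2 with that filter and without KO replicate 2 (where *Adamts20* was at 1.99), and 4 with library totals and without WT replicate 1. Members that rose at an adjusted p of 0.05 ranged from 11 to 14 and those that fell from 10 to 13. The cause of these shifts was not tested.

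Library totals moved the all-gene median from 0.02 to 0.17 on the log2 scale, and the numbers of all genes higher and lower from 5335 and 5045 to 6628 and 3964. With the replicate number as a block, 12 members rose and 12 fell, and no member's call changed. Whether same-numbered samples were paired is not given in the sources used. Their deviations from the group means correlated at -0.0287 across genes. With so few libraries per genotype, this value cannot decide whether they were paired. Depth limits the 11 members below the filter, which had at most 15 counts in any library and were tested only with the filter off, where 12 members rose and 12 fell.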
